A study of Mus musculus with 12 samples.

Results

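Stefins and cystatin C are cysteine protease inhibitors, and 4 of their genes, Csta3, Cstdc4, Cstb and Cst3, were followed in RAW264.7, a line of mouse cells with macrophage features. They were taken by symbol from a table of 31719 gene symbols, and each symbol occurred in it once. The members were chosen by their FPKM levels in the 4 groups, which were already known: Csta3 and Cstdc4 as stefins that were high with lipopolysaccharide (LPS), and Cstb and Cst3 as stefin and cystatin genes detected in all libraries. Their levels and differences are therefore a description, with no test.

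Gene expression was measured by RNA sequencing of 12 libraries in 4 groups of 3. The groups were cells given LPS, a bacterial cell wall component, at 50 ng per ml together with an antibody against the scavenger receptor CD36; cells given LPS alone at the same dose; cells given the antibody alone, at a dilution of 1 in 100; and untreated cells. All groups carried the genotype label WT. The labels name no control antibody and no treatment time, and it is not stated there whether replicate libraries stand for separate cultures, so a p-value here sets a difference against a spread that may be technical.

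Cystatins bind the active site cleft of papain-like proteases, such as the lysosomal cathepsins, and block it reversibly. The type 1 cystatins, or stefins, lack a signal peptide and stay mostly inside the cell. In the mouse, stefin A is encoded by a cluster of similar copies, which are best known from neutrophils, while stefin B, the product of Cstb, is found in most cells. Cystatin C, the product of Cst3, is a secreted type 2 cystatin that also inhibits legumain, and macrophages are among its known sources.

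The stretch of coding sequence that specifies the first inhibitory hairpin loop is given for each of the 4 genes, with the 5 loop codons in capitals. The segments are from GENCODE M21 transcripts (GRCm38), read 5′ to 3′ on the coding strand, with 15 bases on each side of the loop. The loop codons start at coding base 136 in Csta3, Cstdc4 and Cstb and at coding base 223 in Cst3.

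Csta3: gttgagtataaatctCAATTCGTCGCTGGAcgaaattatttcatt

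Cstdc4: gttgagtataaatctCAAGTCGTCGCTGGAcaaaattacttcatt

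Cstb: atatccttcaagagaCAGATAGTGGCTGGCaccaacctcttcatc

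Cst3: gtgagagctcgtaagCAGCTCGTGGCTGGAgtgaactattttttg

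Csta3 and Cstdc4 shared 14 of the 15 loop bases and 42 of the 45 bases shown. Cstb shared 21 of the 45 bases with Csta3 and 22 with Cstdc4, and Cst3 shared 23 with Csta3 and 22 with Cstdc4. In the loop alone, Cstb shared 10 of 15 bases with Csta3 and with Cstdc4. Cst3 shared 12 of 15 with Csta3, with Cstdc4 and with Cstb. The segment alone thus does not place Cstb nearer to the cluster genes than Cst3. Over the whole coding sequence, Csta3 and Cstdc4, of 294 bases each, were 81.3% identical. Their identity with Cstb was 57.3% for Csta3 and 61.8% for Cstdc4, and with Cst3 it was 42.5% and 43.0% in the same order.

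The similarity matters for counting. Of all 50-base windows of the spliced Cstdc4 transcript, 35.6% occurred also in Csta2, another copy of the cluster, whereas no such window of Csta3, Cstb or Cst3 occurred in another gene of the annotation. How reads that fit several places were handled is not given in the sources used here. Csta2 itself held 2 counts over the LPS+anti-CD36 libraries and 1 over the LPS libraries, so few reads of the shared stretch were assigned to it.

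In GRCm38, Csta3 (Gm5416 in GENCODE M21) lies on the plus strand at chr16:36210403-36217788, and Cstdc4 (Gm5483) lies upstream of it at chr16:36184212-36188111, also on the plus strand. Cstb is at chr10:78425669-78427622 on the plus strand and Cst3 at chr2:148871722-148875692 on the minus strand. The Csta3 gene model holds 294 exonic bases, which are the coding sequence alone. The Cstdc4 model spans 1862 exonic bases, since it includes a retained-intron transcript of 1859 bases beside the spliced one of 414. FPKM (fragments per kilobase of gene model, scaled to library depth) divides by these lengths, so a level of Cstdc4 per spliced mRNA may be understated. The counts were not split between spliced and retained-intron bases. Values at 414 bases take all of them as spliced and are therefore upper limits for these counts. At 414 bases the same counts would give Cstdc4 means of 105 FPKM in the LPS+anti-CD36 group, 37.3 in the LPS group, 1.09 in the anti-CD36 group and 1.05 in the untreated group.

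The libraries held 30070450 to 54137808 counts. Of 12 macrophage markers, 11 reached 1 FPKM in at least 1 library, among them Lyz2, Csf1r and Cd68, while Mertk stayed near 0. No epithelial, fibroblast or lymphocyte marker on the lists reached 1 FPKM. Levels were compared as log2(FPKM + 1), and the 10276 genes that reached 1 FPKM in 3 or more libraries were tested, the 4 members among them. Csta3 and Cstdc4 passed that filter only through the libraries with LPS.

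Csta3 was detected mainly where LPS was given, and was highest with LPS and the antibody together. It measured 8.77, 7.77 and 8.25 FPKM in the LPS+anti-CD36 libraries, 2.31, 1.40 and 1.31 in the LPS libraries, 0, 0.226 and 0 in the anti-CD36 libraries, and 0.251, 0 and 0 in the untreated libraries. The 3 LPS+anti-CD36 libraries lay above all 3 LPS libraries, which lay above all 6 libraries without LPS, and the anti-CD36 and untreated libraries overlapped. The values rest on few reads: 95, 92 and 118 counts in the LPS+anti-CD36 libraries, 22, 13 and 13 in the LPS libraries, 2 in 1 anti-CD36 library and 4 in 1 untreated library. In the 4 libraries with a count of 0, 3 counts would have given between 0.269 and 0.339 FPKM.

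The mean level of Csta3 was 8.26 ± 0.498 FPKM in LPS+anti-CD36 cells and 1.67 ± 0.557 FPKM in LPS cells (SD, n = 3 each), a ratio of 4.94. On the log2(FPKM + 1) scale the difference between these groups was 1.81 (SE 0.15). LPS cells differed from untreated cells by 1.29 (SE 0.15) on that scale, and LPS+anti-CD36 cells from anti-CD36 cells by 3.11. No linear fold is given against the groups without LPS, which held 6 counts in all. The difference between anti-CD36 and untreated cells was −0.01 (SE 0.15).

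Cstdc4 showed the same order of groups on 1862 bases and many more reads. Its levels were 24.9, 23.1 and 21.96 FPKM in the LPS+anti-CD36 libraries, 9.44, 7.70 and 7.77 in the LPS libraries, 0.339, 0.143 and 0.247 in the anti-CD36 libraries, and 0.258, 0.232 and 0.208 in the untreated libraries. Again the 3 LPS+anti-CD36 libraries stood above the LPS libraries, those stood above the 6 libraries without LPS, and the anti-CD36 and untreated libraries overlapped. The groups held 5429, 1510, 46 and 53 counts in that order, so Cstdc4 was detectable at a low level in every library.

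Cstdc4 averaged 23.3 ± 1.5 FPKM in LPS+anti-CD36 cells and 8.30 ± 0.982 FPKM in LPS cells (SD, n = 3 each), a ratio of 2.81. Between libraries of the same replicate number, which the labels do not say are paired, the ratio was 2.64, 2.99 and 2.83. LPS cells stood 35.7-fold above untreated cells, whose mean was 0.233 ± 0.0249 FPKM, and LPS+anti-CD36 cells stood 96.0-fold above anti-CD36 cells, whose mean was 0.243 ± 0.0984 FPKM. The log2 differences were 1.39 for LPS+anti-CD36 against LPS, 2.91 for LPS against untreated, 4.29 for LPS+anti-CD36 against anti-CD36 and 0.01 for anti-CD36 against untreated (SE 0.09 each).

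**Figure D1:**
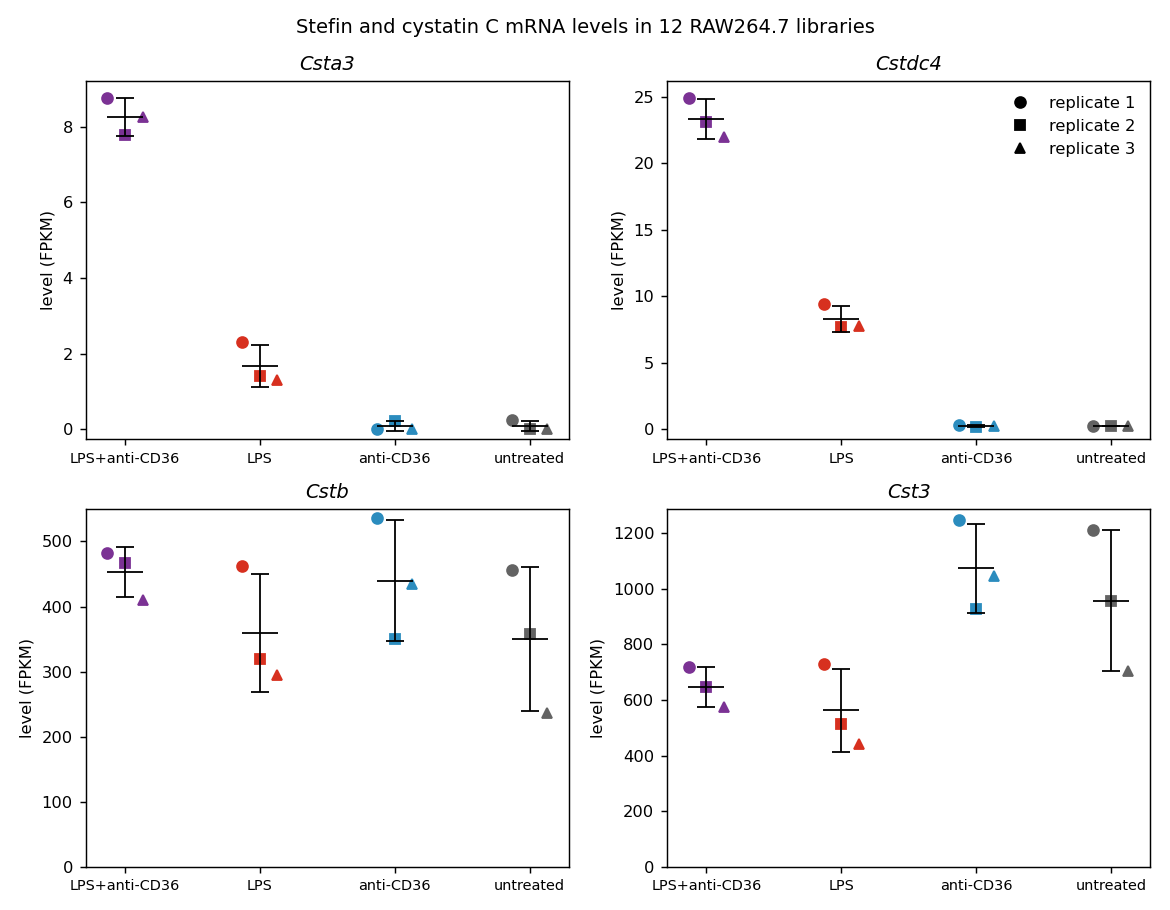
Level in FPKM of Csta3, Cstdc4, Cstb and Cst3 in each of 12 libraries by group, on axes from 0 that differ between panels; symbols mark the replicate number, and bars give the mean and SD of 3 libraries. Csta3 and Cstdc4 run in 3 steps, highest with LPS and anti-CD36 together, while the groups of Cstb overlap and Cst3 is lower in both groups with LPS.

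The difference made by LPS was larger with the antibody than without it for both cluster genes. This interaction, the log2 difference of LPS+anti-CD36 against anti-CD36 minus that of LPS against untreated, was 1.82 (SE 0.21) for Csta3 and 1.38 (SE 0.13) for Cstdc4. For the constitutive genes it was 0.00 (SE 0.34) for Cstb and 0.04 (SE 0.31) for Cst3. For Csta3 and Cstdc4 the antibody alone made differences of −0.01 and 0.01. The interaction therefore restates their differences of 1.81 and 1.39 in LPS+anti-CD36 against LPS cells. Over all 10276 genes tested, the interaction was positive and called (adjusted p under 0.05 in limma) for 0.496% and negative and called for 0.788%, and its median was 0.01. The members were chosen by their levels, so they are not weighed against these shares.

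The 2 cluster genes did not keep a fixed ratio to each other. Cstdc4 was 2.82 ± 0.154 times Csta3 in LPS+anti-CD36 libraries and 5.17 ± 0.977 times Csta3 in LPS libraries (FPKM ratio per library, SD, n = 3 each). The 3 LPS+anti-CD36 ratios lay between 2.66 and 2.97 and the 3 LPS ratios between 4.08 and 5.95, without overlap. With all Cstdc4 counts taken as spliced, at 414 bases, the ratios would be 12.7 ± 0.692 in LPS+anti-CD36 libraries and 23.3 ± 4.39 in LPS libraries. Their size thus depends on the gene model. A single length rescales every Cstdc4 value alike, so the contrast between the groups is the same at either length by construction. Whether the spliced share of the counts differed between the groups was not tested. The LPS ratios divide by 13 to 22 counts of Csta3.

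Cstb, for stefin B, was expressed at a high level in every library, and its groups overlapped. It measured 482, 467 and 410 FPKM in the LPS+anti-CD36 libraries, 463, 319 and 295 in the LPS libraries, 535, 350 and 434 in the anti-CD36 libraries, and 457, 357 and 236 in the untreated libraries. Means were 453 ± 38.3 FPKM in LPS+anti-CD36 cells, 359 ± 90.6 in LPS cells, 440 ± 92.8 in anti-CD36 cells and 350 ± 110 in untreated cells. In order of level the groups were LPS+anti-CD36, anti-CD36, LPS and untreated cells, and means next to each other in that order differed by less than the SD of either group. The log2 difference between LPS and untreated cells was 0.06, and that between LPS+anti-CD36 and LPS cells was 0.36 (SE 0.24 each), beside a pooled SD between libraries of 0.34.

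Cst3, for cystatin C, was also high in every library but was not level across the groups. Its levels were 718, 646 and 575 FPKM in the LPS+anti-CD36 libraries, 730, 515 and 443 in the LPS libraries, 1246, 928 and 1044 in the anti-CD36 libraries, and 1211, 957 and 704 in the untreated libraries. The LPS+anti-CD36 libraries all lay below the anti-CD36 libraries. The LPS and untreated libraries overlapped through LPS replicate 1 and untreated replicate 3. Replicate number by replicate number, LPS cells had 0.603, 0.538 and 0.630 times the level of untreated cells. The labels do not say that libraries of the same number are paired, so these ratios do not set the overlap aside.

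Cst3 averaged 646 ± 71.9 FPKM in LPS+anti-CD36 cells, 563 ± 150 in LPS cells, 1073 ± 161 in anti-CD36 cells and 957 ± 254 in untreated cells (SD, n = 3 each). The ratio of means was 0.588 for LPS against untreated cells and 0.602 for LPS+anti-CD36 against anti-CD36 cells. The log2 differences were −0.76 and −0.73 in that order (SE 0.22 each). They are to be read against the whole table, whose median moved by −0.14 between LPS and untreated cells and by −0.12 between LPS+anti-CD36 and anti-CD36 cells. With the columns rescaled by median-of-ratios factors, which bring these medians near 0, the Cst3 differences were −0.60 and −0.58. The antibody moved Cst3 by less than the spread, with log2 differences of 0.23 in LPS+anti-CD36 against LPS cells and 0.19 in anti-CD36 against untreated cells (SE 0.22 each).

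Both high genes varied together within groups. Replicate 1 was the highest library of its group for Cst3 and for Cstb in all 4 groups. It lay 0.16 to 0.41 above the group mean for Cst3 and 0.09 to 0.43 above it for Cstb on the log2(FPKM + 1) scale. The 438 tested genes with models of at most 800 bases moved alike in median: they deviated by 0.0389 to 0.0946 in the 4 replicate 1 libraries and by −0.0624 to −0.0061 in the other 8 libraries. The Cstb model has 603 bases and that of Cst3 has 1266. The part of model length in the spread of Cstb and Cst3 was not tested.

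The ratio of Cst3 to Cstb within a library was steadier than either level. It was 1.43 ± 0.0564 in LPS+anti-CD36 libraries, 1.56 ± 0.0563 in LPS libraries, 2.46 ± 0.169 in anti-CD36 libraries and 2.77 ± 0.181 in untreated libraries (SD, n = 3 each). The 6 libraries with LPS lay between 1.38 and 1.61, and the 6 libraries without LPS lay between 2.33 and 2.98. The lower ratio with LPS was thus seen in every library, although the levels of Cst3 themselves overlapped between LPS and untreated cells.

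**Figure D2:**
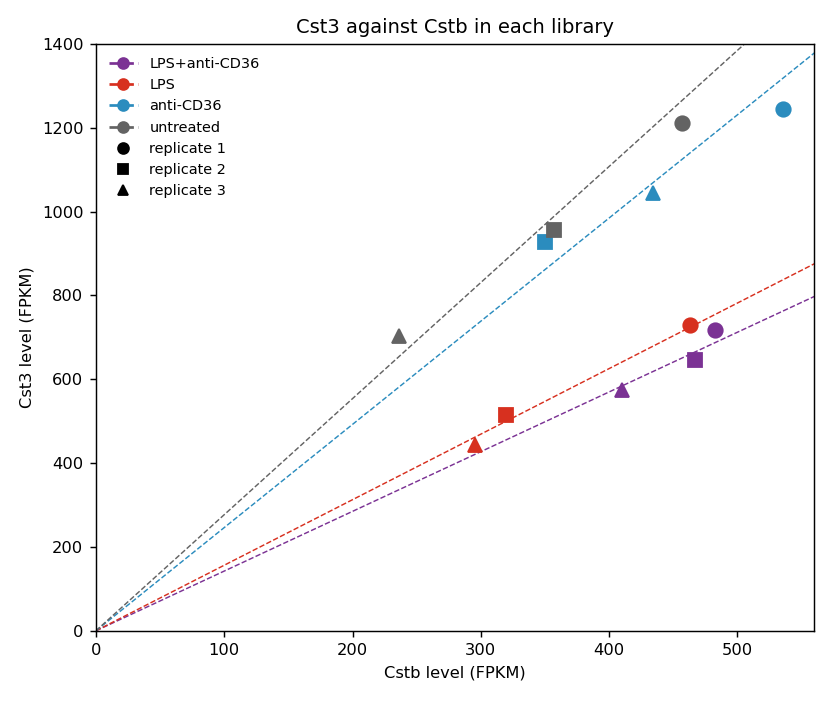
Cst3 level against Cstb level, both in FPKM, in each of 12 libraries; colours mark the group, symbols the replicate number, and each dashed line has the mean Cst3 to Cstb ratio of its group as its slope. The 6 libraries with LPS lie along ratios of 1.38 to 1.61 and the 6 without LPS along 2.33 to 2.98.

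Even at their highest, the cluster genes stayed below the constitutive ones. On the 1862-base model Cstdc4 stood at 5.16 ± 0.211% of the Cstb level in LPS+anti-CD36 libraries, 2.36 ± 0.299% in LPS libraries, 0.0537 ± 0.0117% in anti-CD36 libraries and 0.0699 ± 0.0164% in untreated libraries. Csta3 and Cstdc4 together made up 2.80 ± 0.154% of the summed FPKM of the 4 genes in LPS+anti-CD36 libraries and 1.09 ± 0.119% in LPS libraries (SD, n = 3 each). By mean level among the genes tested, Cst3 ranked 81, 76, 34 and 35 and Cstb 122, 133, 114 and 128 in LPS+anti-CD36, LPS, anti-CD36 and untreated cells. Cstdc4 ranked 2055, 4806, 10177 and 10185 in the same order of groups, and Csta3 ranked 4723, 9049, 10231 and 10225. At 414 bases, with all counts taken as spliced, Cstdc4 would stand at 23.2 ± 0.949% of the Cstb level in LPS+anti-CD36 libraries and 10.6 ± 1.35% in LPS libraries. Its ranks would then be 470 in LPS+anti-CD36 cells and 1280 in LPS cells, and the share of the 2 cluster genes in the 4 would be 9.35 ± 0.393% in LPS+anti-CD36 libraries and 4.15 ± 0.531% in LPS libraries.

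Csta3 and Cstdc4 share a stretch of sequence upstream of their start codons. In the promoter table from RefSeq (GRCm38.p6) both genes hold an identical run of 22 bases, located 89 to 68 bases before the first base of the start codon in each. It is shown in capitals within the 100 bases that end 49 bases before the start codon, on the plus strand, for the 2 members in the cluster. The Csta3 window is chr16:36210255-36210354 and the Cstdc4 window is chr16:36184112-36184211.

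Csta3: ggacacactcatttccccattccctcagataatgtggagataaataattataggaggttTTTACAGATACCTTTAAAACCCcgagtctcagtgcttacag

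Cstdc4: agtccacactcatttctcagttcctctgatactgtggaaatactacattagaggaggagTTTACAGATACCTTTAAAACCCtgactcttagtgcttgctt

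The 2 windows agreed at 70 of 100 positions without gaps. Over promoters of 300 bases, aligned with gaps, Csta3 and Cstdc4 were 58% identical. Stfa3, a further copy of the cluster, was 60.7% identical to Csta3 and 67.1% to Cstdc4. The likeness upstream was therefore not particular to the 2 members, although the exact run was not in the Stfa3 promoter. The run of 22 bases occurred in 4 of 32544 mouse promoters in the table (0.0123%), those of Csta3, Cstdc3, Cstdc4 and Cstdc5, all named as members of this gene family, of which Cstdc5 was listed at 0 FPKM in every library. The table covered 3 of the 4 members, with no entry for Cstb. Because the annotated Csta3 transcript begins at its start codon, while that of Cstdc4 begins 48 bases before it, the run sits at a different distance from the annotated start in each.

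The 300-base promoter of Cst3 differed in composition from those of the cluster genes. It held 13 CpG dinucleotides and 60.3% GC, against 2 CpG and 47.0% GC for Csta3 and 2 CpG and 41.0% GC for Cstdc4. The median of all promoters was 7 CpG and 53.0% GC. Searched on both strands, the letters TTGCNNAA (C/EBP) occurred in the Csta3 promoter and in 10.8% of all promoters, and an NF-kB motif, searched as GGGA and CC with any 4 bases between them, in the Cst3 promoter and in 20.8% of all. The AP-1 letters TGANTCA, present in 7.79% of promoters, were not in the windows of Csta3, Cstdc4 or Cst3. Nor were the STAT letters TTCCNGGAA, present in 1.16%, the PU.1 letters GAGGAAGT, present in 3.11%, or the letters TATAAA, present in 13.6%. A search for the interferon response element, as a pair of GAAA with any 2 bases between them, found no match there either and matched 3.45% of promoters. These matches describe letters in a window and say nothing of binding.

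Among the other copies of the stefin A cluster that were listed, only Stfa3 reached 1 FPKM in 3 libraries, and those were the 3 LPS+anti-CD36 libraries. Since that group alone brought it past the filter, its differences are a description, with no test. Stfa3 measured 2.502, 1.45 and 2.35 FPKM in the LPS+anti-CD36 libraries, 0.751, 0 and 0.287 in the LPS libraries, 0, 0.161 and 0 in the anti-CD36 libraries, and 0.0897, 0 and 0 in the untreated libraries. The 3 LPS+anti-CD36 libraries lay above all other libraries, and the other groups overlapped. The log2 differences were 1.22 for LPS+anti-CD36 against LPS cells, 1.54 for LPS+anti-CD36 against anti-CD36 cells and 0.35 for LPS against untreated cells (SE 0.19 each).

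Without LPS replicate 2, in which Stfa3 was at 0, the difference between LPS and untreated cells was 0.54. Stfa3 held 109 counts over the LPS+anti-CD36 libraries and 14 over the LPS libraries. Its coding sequence was 79.8% identical to that of Csta3 and 78.5% to that of Cstdc4.

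The remaining listed copies were at or near 0. The list did not cover every copy, and no level is given here for Cstdc3. Stfa2l1 reached 1.04 FPKM in 1 LPS+anti-CD36 library and averaged 0.670 ± 0.404 in that group, against 0.194 ± 0.0764 in LPS cells, 0.0941 ± 0.0830 in anti-CD36 cells and 0 in untreated cells. Stfa2 reached at most 0.691 FPKM, also with LPS and antibody. Csta1 and Csta2 held 12 and 3 counts over all 12 libraries, and Stfa1, Cstdc5 and Cstdc6 were listed at 0 throughout. Stfa2 and Stfa2l1 are 96.5% identical in coding sequence, so counts may have been split between them.

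**Figure D3:**
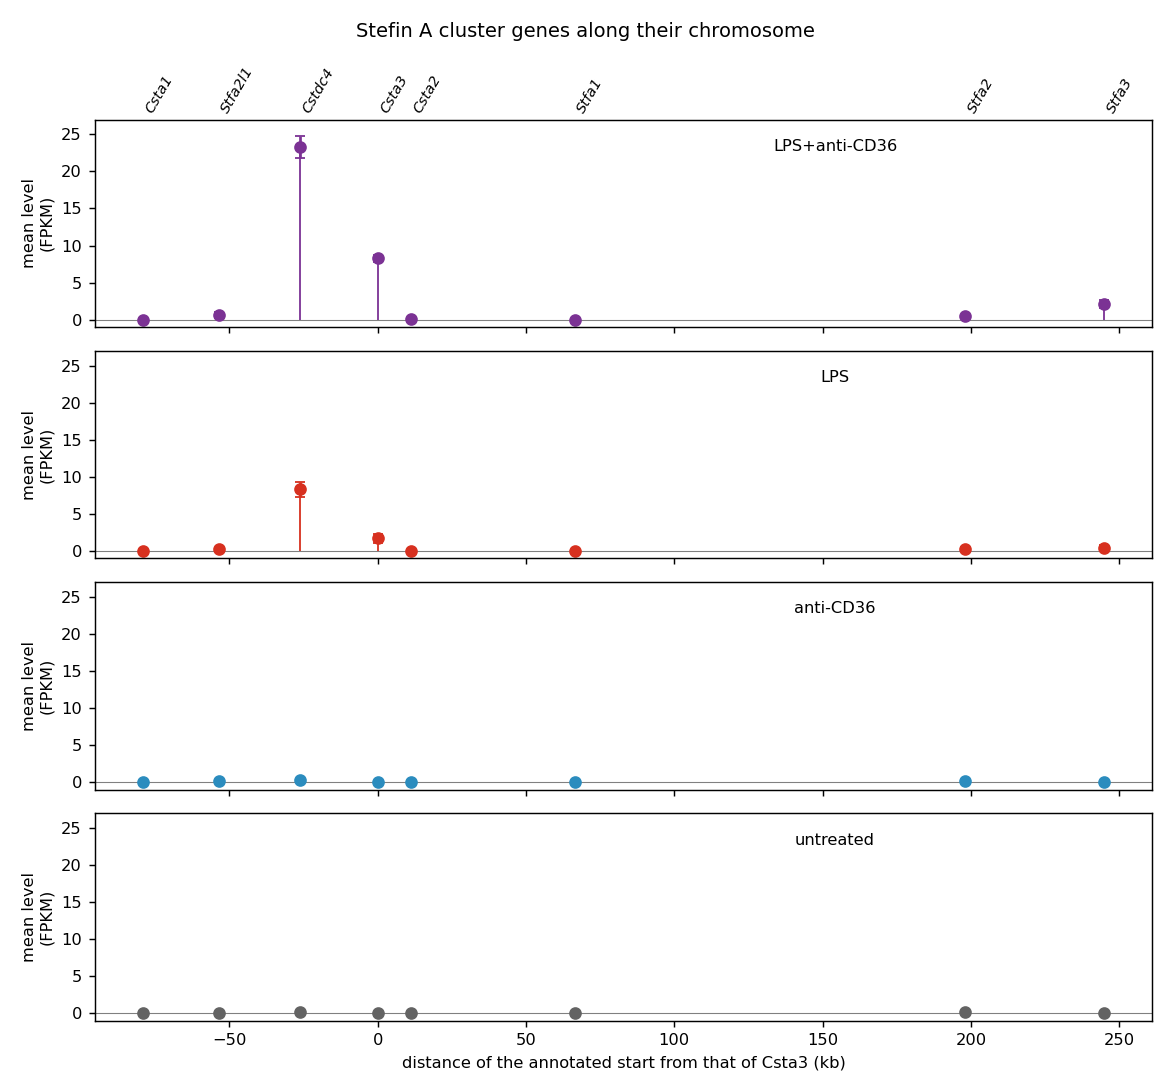
Mean level in FPKM (n = 3, bars SD) of 8 stefin A cluster genes against the distance of their annotated start from that of Csta3, in kb, with 1 panel for each group. Cstdc4, 26.2 kb before Csta3, is the highest gene in the LPS+anti-CD36 and LPS panels, followed by Csta3, and Stfa3 at 245.0 kb is the third in the LPS+anti-CD36 panel.

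The tested genes that flank the cluster did not share one direction. Of 5 genes on each side, Hcls1, a signalling adaptor of blood cells that lies 724.6 kb from Csta3, rose by 1.42 log2 units in LPS against untreated cells (adjusted p = 1.06e-07), as did Golgb1 by 0.73 (adjusted p = 0.00325) and Parp9 by 0.72 (adjusted p = 0.00145). That direction was called for 16.6% of all genes tested, and the opposite one for 33.1%. Polq fell by 0.59 (adjusted p = 0.00914) and Wdr5b fell by 0.42 (adjusted p = 0.0257), and the other 5 were not called. The Wdr5b call was lost without LPS replicate 1 (−0.28, adjusted p = 0.085) and without untreated replicate 2 or 3 (−0.41 and −0.33, adjusted p = 0.0698 and 0.0874), and also without a filter on low values (adjusted p = 0.0558), with median-of-ratios scaling (adjusted p = 0.0893) and in a fit of these 2 groups alone (adjusted p = 0.0744). The Polq call was lost in that last fit (adjusted p = 0.0531).

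In LPS+anti-CD36 against LPS cells, the comparison in which Csta3 and Cstdc4 were higher, the 2 nearest tested genes before the cluster fell. Ccdc58 fell by 0.42 (adjusted p = 0.00752) and Fam162a fell by 0.46 (adjusted p = 0.0206), while Wdr5b rose by 0.61 (adjusted p = 0.0164), all in limma. In that comparison 7.34% of all genes tested were called higher and 8.14% lower. The other 7 neighbours were not called, with differences between −0.33 for Golgb1 and 0.28 for Hcls1. The Fam162a call was lost without any 1 of the 3 LPS+anti-CD36 libraries or without LPS replicate 2, where its adjusted p lay between 0.0501 and 0.0764. The Wdr5b call was lost without LPS+anti-CD36 replicate 2 (0.50, adjusted p = 0.0764) and in a fit of these 2 groups alone (adjusted p = 0.0545). Without LPS replicate 1, Golgb1 (−0.50), Kpna1 (−0.42), Parp9 (−0.33) and Hcls1 (0.34) were called as well, and Hcls1 also without untreated replicate 3.

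Cst7 is the gene of cystatin F, a type 2 cystatin of immune cells that inhibits cathepsin C. Of the other type 2 cystatin genes listed, only Cst7 reached 1 FPKM. It measured 8.58, 9.34 and 7.47 FPKM in the LPS+anti-CD36 libraries, 6.31, 6.18 and 5.12 in the LPS libraries, 13.6, 14.7 and 15.3 in the anti-CD36 libraries, and 13.6, 12.1 and 9.32 in the untreated libraries. Its group means had the order of those of Cst3, with both groups given LPS below both groups without it, although the LPS+anti-CD36 and untreated libraries overlapped. Cst7 fell by 0.88 log2 units in LPS against untreated cells (SE 0.13, adjusted p = 0.000141) and fell by 0.72 in LPS+anti-CD36 against anti-CD36 cells (adjusted p = 0.00066).

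With the antibody, Cst7 rose by 0.46 in LPS+anti-CD36 against LPS cells (adjusted p = 0.0338 in limma), a call that was lost in 7 of 18 alternatives. Those were the one without a filter on low values and the ones without LPS+anti-CD36 replicate 1 or 2, LPS replicate 2 or 3, anti-CD36 replicate 3 or untreated replicate 2, with adjusted p values up to 0.132. In anti-CD36 against untreated cells the difference was 0.31 with adjusted p = 0.235. Called genes were rare in that comparison, at 0.146% of all genes tested for higher and 0.195% for lower.

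The profiles most like that of Csta3 belonged to Il23a, which encodes the p19 chain of interleukin-23, Il1f6 (interleukin-36 alpha), Adora2b (an adenosine receptor), Mir7678 (a microRNA gene entry) and Fpr2 (a formyl peptide receptor). Likeness was the root mean square distance between log2(FPKM + 1) profiles over the 12 libraries, each centred on its own mean. The distances ran from 0.294 for Il23a to 0.373 for Fpr2, against a median of 1.359 to all genes tested. Il23a averaged 5.95 FPKM in LPS+anti-CD36 cells, 2.34 in LPS cells, 0.168 in anti-CD36 cells and 0.0910 in untreated cells.

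Cstdc4 was nearest to Lta, which encodes lymphotoxin alpha, at a distance of 0.125. Gstt4, Tnfrsf1b (a TNF receptor), Ccl2 (a monocyte-attracting chemokine) and Mmp9 (a secreted gelatinase) followed at 0.170, 0.267, 0.285 and 0.312, against a median of 1.944 to all genes. Lta averaged 24.6 FPKM in LPS+anti-CD36 cells, 8.91 in LPS cells, 0.168 in anti-CD36 cells and 0.141 in untreated cells, close to Cstdc4 on its 1862-base model in level as well as in profile. Csta3 and Cstdc4 were 0.730 apart, so each had at least 5 genes nearer than the other.

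**Figure D4:**
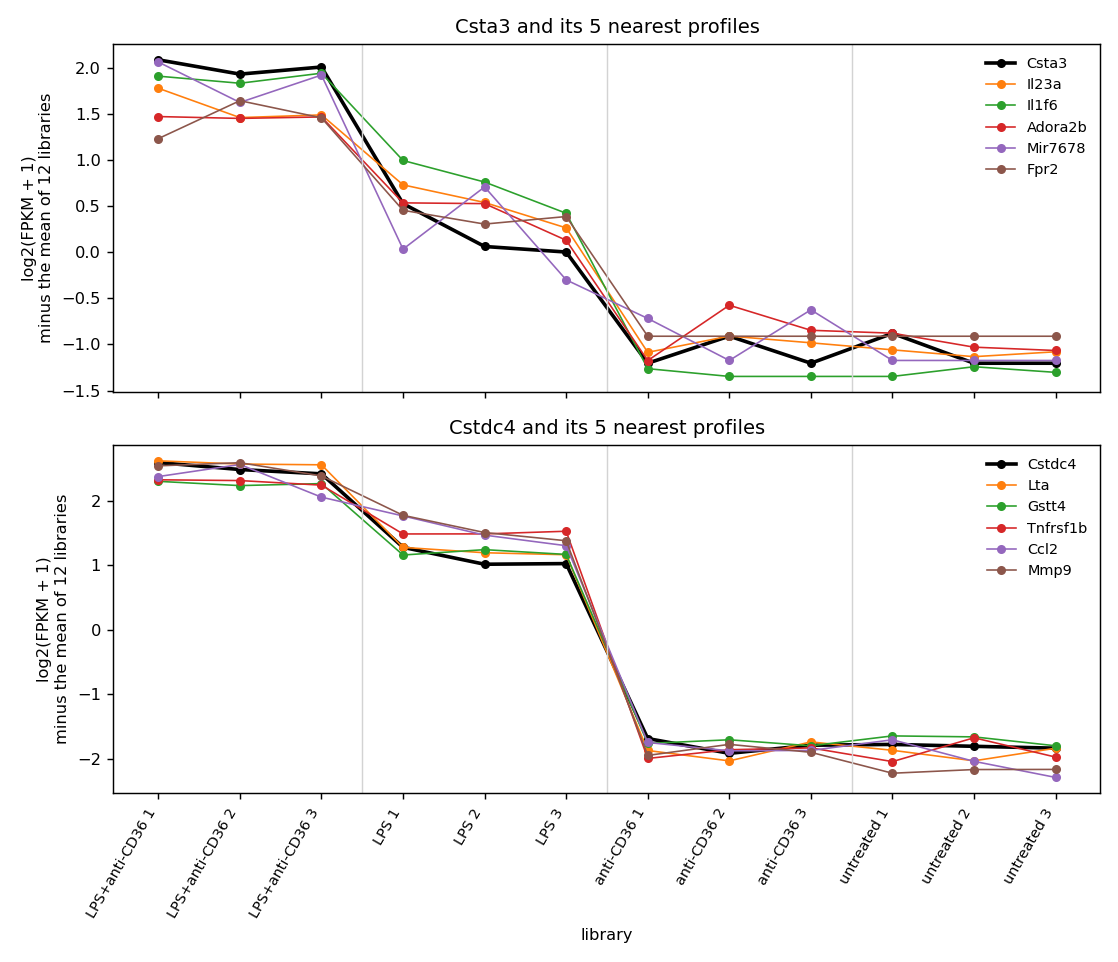
Profiles of Csta3 (top) and Cstdc4 (bottom) with their 5 nearest genes over the 12 libraries, as log2(FPKM + 1) minus the mean of 12 libraries; black marks the member. Each set runs in 3 steps, from the LPS+anti-CD36 libraries through the LPS libraries to the 6 libraries without LPS.

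Cstb and Cst3 lay near many moderately variable genes. Cstb was nearest to Ssr2 (0.0769), Rpl41, Trappc2l, Uqcrq and Aprt (0.0832), and Cst3 to Snrnp25 (0.0479), Atp5j2, Twf2, Ech1 and Nhp2 (0.0704). Their medians to all genes tested were 0.445 for Cstb and 0.473 for Cst3, close to the 0.414 between the 2 genes themselves. All distances share the same libraries and depths.

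Of the proteases that cystatins inhibit, 9 of 11 cysteine cathepsins and legumain were tested, and in LPS against untreated cells 3 rose, 3 fell and 3 were not called, where 16.6% of all genes tested were called higher and 33.1% lower. Ctsl, for cathepsin L, rose by 0.81 log2 units in LPS against untreated cells (SE 0.07, adjusted p = 2.29e-06), Ctss by 0.36 (adjusted p = 0.00261) and Ctsz by 0.40 (adjusted p = 0.0118, and 0.0633 in a fit of these 2 groups alone). Ctsh, for the aminopeptidase cathepsin H, fell by 1.87 (SE 0.11, adjusted p = 5.56e-08), Lgmn, for legumain, fell by 1.26 (adjusted p = 1.06e-07) and Ctsf fell by 1.14 (adjusted p = 2.82e-07). Ctsb, Ctsc and Ctso had differences of 0.07, 0.21 and 0.26 that were not called. All 3 were called higher with median-of-ratios scaling, at 0.23, 0.36 and 0.37 (adjusted p = 0.0308, 0.00179 and 0.00874), and Ctsc and Ctso also without LPS replicate 1 or without untreated replicate 3. The median of the 9 was 0.21, against −0.14 for all genes tested.

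Ctsl measured 167, 176 and 182 FPKM in the LPS+anti-CD36 libraries, 129, 138 and 132 in the LPS libraries, 86.1, 95.4 and 90.5 in the anti-CD36 libraries, and 76.1, 76.3 and 73.8 in the untreated libraries, with no overlap between any groups. Lgmn measured 51.0, 50.6 and 48.1 FPKM in the LPS+anti-CD36 libraries and 53.8, 51.9 and 46.8 in the LPS libraries. It measured 120, 130 and 135 FPKM in the anti-CD36 libraries and 121, 127 and 122 in the untreated libraries. Lgmn thus stood apart by LPS and overlapped between the groups with and without the antibody.

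With the antibody added to LPS, 2 of the 9 protease genes rose and none fell, where 7.34% of all genes tested were called higher and 8.14% lower. Ctsl rose by 0.39 in LPS+anti-CD36 against LPS cells (adjusted p = 0.00525) and Ctsz by 0.42 (adjusted p = 0.0314), both in limma. Ctsz measured 504, 493 and 481 FPKM in the LPS+anti-CD36 libraries and 430, 357 and 328 in the LPS libraries. Its call was lost in 8 of 18 alternatives, among them those without any 1 LPS+anti-CD36 library, without LPS replicate 2 or 3 or without anti-CD36 replicate 3, with adjusted p values of 0.0517 to 0.122. The median of the 9 was 0.10, against 0.02 for all genes.

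LPS+anti-CD36 against anti-CD36 cells gave 4 higher and 3 lower protease genes, where 16.3% of all genes tested were called higher and 31.3% lower. These were Ctsl (0.94), Ctsz (0.49), Ctss (0.46) and Ctsc (0.46) upward and Ctsh (−1.73), Lgmn (−1.35) and Ctsf (−1.13) downward. In anti-CD36 against untreated cells limma called 0 of 9, with 2 at an unadjusted p under 0.05. Of all 10276 genes tested, 15 were called higher and 20 lower there, with 1969 at an unadjusted p under 0.05. In the interaction limma called 0 of 9, with 0 at an unadjusted p under 0.05. Of all genes tested, 51 were called positive and 81 negative in it, with 884 at an unadjusted p under 0.05. Ctsk and Ctsw stayed under 1 FPKM.

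Of 24 inhibitors of other families, 10 were tested, and 6 of them rose in LPS+anti-CD36 against LPS cells while 1 fell, against 7.34% of all genes tested called higher and 8.14% lower. Timp1, an inhibitor of matrix metalloproteases, rose by 2.21 log2 units (SE 0.17, adjusted p = 1.11e-05). Slpi, a secreted inhibitor of neutrophil elastase, rose by 1.34 (adjusted p = 0.00137), Serpinb6b by 1.09 (adjusted p = 0.000276) and Serpinb9, whose product inhibits granzyme B, by 0.95 (adjusted p = 9.69e-05). The median of the 10 was 0.58, against 0.02 for all genes. Timp1 stood at 99.4, 84.5 and 81.6 FPKM in the LPS+anti-CD36 libraries, 24.2, 16.5 and 15.1 in the LPS libraries, 0.652, 0.897 and 1.33 in the anti-CD36 libraries, and 0.333, 0.300 and 0.156 in the untreated libraries. Like Csta3 and Cstdc4, it was highest with LPS and antibody and next with LPS alone. Its anti-CD36 libraries all lay above the untreated ones, whereas these groups overlapped for Csta3 and Cstdc4.

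Serpinf1 was the 1 gene that fell, with a difference of −0.45 (adjusted p = 0.0485), a call lost in 12 of 17 alternatives, and Serpinb6a, at 0.26 (adjusted p = 0.0447), lost its call in 8 of 18. Without any 1 of the LPS+anti-CD36 libraries neither was called, nor without LPS replicate 2. Wfdc17 (0.52, adjusted p = 0.0574 in limma) was not called but gained a call in 6 of 18 alternatives. Serpinb8 (−0.28, adjusted p = 0.207) gained one in 2 of 18. In LPS against untreated cells 6 of the 10 were called higher and 2 lower, against 16.6% and 33.1% of all genes tested. Of those higher, Timp1 (3.93) and Serpinb2 (1.40) had passed the filter on low values only through libraries with LPS, so their calls are no support. Wfdc17 rose by 4.47 (adjusted p = 1.53e-09) and Slpi by 2.26 (adjusted p = 1.93e-06), and Serpinb8 fell by 2.40 (adjusted p = 1.21e-07). Of those 8 calls, that of Serpinb6b (0.42, adjusted p = 0.017) was lost in 5 alternatives and that of Serpinf1 (−0.36, adjusted p = 0.0499) in 13, among them those without LPS replicate 2 or 3 or without untreated replicate 1 or 2. LPS+anti-CD36 against anti-CD36 cells also gave 6 higher, again with Timp1 and Serpinb2 among them, and 2 lower, against 16.3% and 31.3% of all genes tested. In anti-CD36 against untreated cells limma called 0 of 10, with 3 at an unadjusted p under 0.05. Of all 10276 genes tested, 15 were called higher and 20 lower there, with 1969 at an unadjusted p under 0.05.

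**Figure D5:**
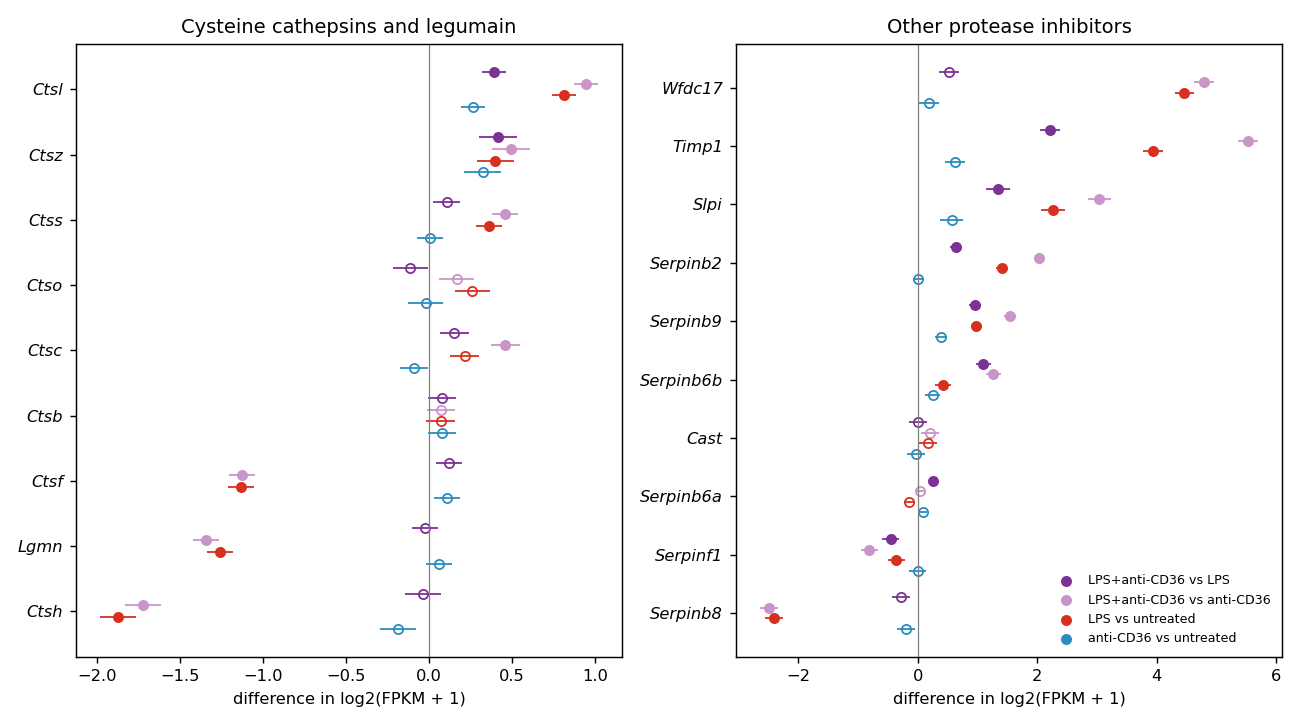
Difference in log2(FPKM + 1) of 9 cysteine cathepsins and legumain (left) and 10 inhibitors of other families (right) in 4 comparisons; bars give the standard error, and filled points mark genes called in limma at adjusted p under 0.05. Ctsh, Lgmn and Ctsf lie below 0 in both comparisons of LPS with no LPS, and Timp1, Slpi, Serpinb9 and Serpinb6b lie above 0 when the antibody is added to LPS.

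Markers of neutrophils, the cells best known for mouse stefin A copies, were read beside these genes. Of 16 on the list, 3 reached 1 FPKM in at least 1 library (Lcn2, Mmp9 and Csf3r). Another 5 (Ly6g, Mpo, S100a9, Retnlg and Chil3) were at 0 in all 12 libraries, and the rest were detected but stayed under 1 FPKM. The summed level of the 16 was 89.6 to 97.6 FPKM in LPS+anti-CD36 libraries, 31.3 to 42.4 in LPS libraries, 2.85 to 3.53 in anti-CD36 libraries and 2.23 to 2.53 in untreated libraries. Like Csta3 and Cstdc4, the sum was highest with LPS and antibody and next with LPS alone. Unlike for those 2 genes, the anti-CD36 libraries did not overlap with the untreated ones in this sum. In the libraries with LPS, Lcn2 and Mmp9 made up nearly all of it, with 47.96, 48.95 and 47.23 FPKM of Lcn2 in the LPS+anti-CD36 libraries and 14.6, 9.87 and 9.61 in the LPS libraries. The sum of the macrophage markers ran from 7139 to 7764 FPKM in LPS+anti-CD36 libraries, from 5884 to 7707 in LPS libraries, from 5444 to 5916 in anti-CD36 libraries and from 4276 to 5653 in untreated libraries. Lyz2 and Cd14 held the largest parts of it, and Cd14 averaged 1987, 1569, 639 and 529 FPKM in that order of groups. The markers did not share one direction. In LPS against untreated cells limma called 6 of 11 higher and 2 lower, Csf1r (−0.40) and Cd68 (−0.42). Of all genes tested, 16.6% were called higher and 33.1% lower. In bulk RNA, more cells expressing a gene and more RNA per cell cannot be told apart.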

How the data were processed

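RNA was sequenced from 12 RAW264.7 libraries. Per the labels' protocols, RNA was extracted with Trizol and libraries followed Illumina protocols. The submitters' processing notes list HISAT2 2.0.5 and the builds hg38 and mm39, with no role for either; the counting tool and annotation are not given in the sources used here. The deposited values are FPKM computed by the authors, 1 column per library and 31801 entries. Of repeated symbols the entry of highest mean was kept (82 left out). Il6 was left out, since its values equalled those of Gm10874 in the 6 libraries without LPS.

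Counts behind each value were recovered from the exon lengths of GENCODE M21 (97.6% of symbols) and the steps between values. Of entries under 200 counts, 91.9% to 92.6% came out whole within 0.02, and 59.3% to 63.8% of those were even, so a count may be a read end rather than a fragment. Such counts and floors of 3 counts cover counting error only.

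The means of the 4 groups were fitted together, with an intensity trend, by limma 3.58.1 in R 4.3.3 on log2(FPKM + 1), which understates changes of low genes. Benjamini-Hochberg adjustment ran over the 10276 genes tested, in each of 5 comparisons. The model was tested on simulated data. Python 3.11.15, numpy 2.4.6, pandas 2.3.3 and matplotlib 3.10.9 were used elsewhere. Coordinates are those of GRCm38, which is not the build named for the alignment, and serve for names, lengths and sequences only.

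The members, gene lists, comparisons and named genes were chosen with earlier results of these data known. Named genes were the members, cystatin genes reaching 1 FPKM, tested cathepsins, the called other inhibitors of smallest p, markers, the 5 nearest profiles of each member and up to 5 tested neighbours on each side of the cluster. Cluster genes under 1 FPKM were named after their values were seen. Alternatives were another pseudocount, other filters, median-of-ratios scaling, a block on replicate number, fits of the compared groups alone and leaving out each library. An item of the list of other inhibitors is not reported here. For Stfa3, Cst7, the other inhibitors, the neighbours and the neutrophil markers they were added after seeing the data.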

Additional observations from a re-analysis of the deposited data

Results flagged for a closer look

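For 3 of the other protease inhibitors the difference made by LPS was not the same with and without the antibody, by limma's interaction term. They were 3 of 10 tested, where 0.496% of all genes tested were called positive and 0.788% negative, and Timp1 and Serpinb2 had passed the filter on low values only through libraries with LPS. It was larger with the antibody for Timp1 (1.59, adjusted p = 0.00506), Serpinb6b (0.84, adjusted p = 0.0475) and Serpinb2 (0.63, adjusted p = 0.0446), a serpin. The Timp1 call was lost with a pseudocount of 0.1 (0.73, adjusted p = 0.675), and it held without each single library. Those of Serpinb2 and Serpinb6b were each lost in 12 alternatives, most of which left out 1 library. Timp1 reached at most 1.33 FPKM in a library without LPS.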

How the results depend on the processing

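Calls were followed through the alternatives for the tested proteases, Stfa3, Cst7, the other inhibitors, the neighbours and the tested neutrophil markers. An entry was 1 gene in 1 comparison and 1 alternative. The call was unchanged in 2822 entries, lost in 102 and gained in 52, and 0 entries with a call changed direction. Apart from the members, the other genes tested, the macrophage markers among them, were not followed one by one. With a pseudocount of 0.1 the log2 differences of the cluster genes were larger: for Csta3 3.50 in LPS against untreated, 2.28 in LPS+anti-CD36 against LPS, 5.82 in LPS+anti-CD36 against anti-CD36 and 2.32 in the interaction, and for Cstdc4 4.65 in LPS against untreated and 6.13 in LPS+anti-CD36 against anti-CD36. A lower pseudocount compresses low values less by construction. Leaving out each library, the LPS+anti-CD36 against LPS difference stayed within 1.71 to 1.98 for Csta3 and 1.34 to 1.48 for Cstdc4, and the LPS against untreated difference within −0.97 to −0.58 for Cst3. For Cstb the LPS against untreated difference ran from −0.20 to 0.28, so it has no stable direction.

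Counts of called genes moved more. For anti-CD36 against untreated, the 35 calls became 0 in a fit of those groups alone and 1 to 131 without single libraries; inhibitor calls became 1 with a pseudocount of 0.1 and 0 to 2 without single libraries. For LPS+anti-CD36 against LPS, the 1590 calls became 939 in a fit alone and 582 to 3977 without single libraries, the highest without LPS replicate 1; protease calls became 1 without a low-value filter, 1 in a fit alone and 1 to 2 without single libraries. The 132 interaction calls became 85 with the filter at 5 FPKM and 77 to 161 without single libraries; the 3 inhibitor calls became 0 with a pseudocount of 0.1 and 1 to 3 without single libraries. With median-of-ratios scaling, LPS against untreated gave 2360 higher and 2194 lower genes, in place of 1710 and 3403, and LPS+anti-CD36 against anti-CD36 gave 2258 and 2200, in place of 1670 and 3212. The interaction needs all 4 groups, so it has no fit alone. The causes were not tested.

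The labels do not say what a replicate number shares, and the deviations of same-numbered libraries correlated by 0.45 to 0.78 for number 1, −0.32 to 0.43 for number 2 and −0.07 to 0.81 for number 3. With a block on the number, calls became 1164 for anti-CD36 against untreated (2 proteases, 3 inhibitors), 3645 for LPS+anti-CD36 against LPS and 212 for the interaction. Calls gained with the block included Ctsc, Ctso and Gtf2e1 in LPS against untreated cells. They also included Golgb1, Hcls1, Wfdc17 and Serpinb8 in LPS+anti-CD36 against LPS cells, and Slpi, Fam162a and Mmp9 in the interaction. Csta3 is limited by depth, with 13 to 22 counts in LPS libraries.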
